A study of Rattus norvegicus with 6 samples.

Results

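The semaphorins, plexins, Eph receptors and ephrins of the ventral hippocampus were described in aged and adult rats. The genes were taken by the pattern of their symbols and numbered 51 of the 22601 genes in the deposited table: 20 semaphorins, 9 plexins, 14 Eph receptors and 8 ephrins. RNA came from male rats of the outbred Sprague Dawley strain, aged 22 months (aged) or 4 months (adult). Each age held 10 rats trained in the Morris water maze, a test of spatial memory, and 3 rats of each age, drawn at random, were sequenced, so each of the 6 libraries is 1 animal. The labels name no treatment or genetic change in either age.

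Semaphorins are secreted or membrane-bound proteins that steer growing axons, usually by repulsion, and in the adult brain they act on dendritic spines, synapses and oligodendrocytes. Plexins are their receptors, and the secreted class 3 semaphorins mostly need a neuropilin as co-receptor. Eph receptors are receptor tyrosine kinases, and ephrins are their membrane-anchored ligands: ephrin-As are held by a lipid anchor and ephrin-Bs span the membrane, so that the ligand-bearing cell can also be signalled to. In the hippocampus both systems are known from the shaping of spines, mossy fibre and Schaffer collateral connections, and synaptic plasticity.

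Library totals lay between 12476758 and 15689921 counts, and the 51 genes held between 0.235% (aged replicate 2) and 0.309% (adult replicate 3) of them. Neuronal RNA was present throughout, with Slc17a7, the vesicular glutamate transporter of hippocampal excitatory neurons, at 762 to 1338 CPM in aged and 681 to 1143 CPM in adult libraries (CPM are counts scaled to a common library total, here with TMM factors). Some libraries stood apart in transcripts of other tissues. The 10 choroid plexus genes looked up summed to 10.8 to 75.6 CPM in aged libraries and to 2164 CPM in adult replicate 1, against 27.8 and 53.5 CPM in the other adult libraries, with Otx2 at 0 counts in all 6. A gene at 0 in every library may lack transcripts or may have been missed in counting, and these cannot be told apart. The 8 skeletal muscle genes summed to 37 to 138 CPM in aged libraries and to 476 CPM in adult replicate 3, against 131 and 137 CPM in the other adult libraries. In bulk tissue, fewer cells of a type and less RNA per cell cannot be told apart.

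Levels were compared between genes as FPKM, counts scaled to gene length and to library total. Efnb3, which encodes ephrin-B3, a ligand of EphB receptors and EphA4, had the highest mean at 56.4 ± 7.92 FPKM (SD over 6 libraries). Sema7a, a lipid-anchored semaphorin that binds plexin-C1 and integrins, followed at 37.2 ± 13.7 FPKM, and Efna3 (ephrin-A3, an astrocytic ligand of EphA4 at hippocampal spines in the mouse) at 34.7 ± 3.6 FPKM. Epha4 itself stood at 33.6 ± 10.3 FPKM. Efnb3 exceeded Sema7a in 5 of 6 libraries, whereas Sema7a, Efna3 and Epha4 did not separate beyond their spread. Sema6b, a transmembrane ligand of plexin-A4, came next at 23.1 ± 1.09 FPKM.

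In all, 14 of the 51 genes averaged at least 10 FPKM, and those just above that level were Sema5a and Epha8, both at 10.1 FPKM. Epha8 reached 28.9 FPKM in adult replicate 3, against 4.17 to 9.13 FPKM in the other libraries. Sema5a was also highest in adult replicate 3 (17.1 FPKM), and without that library 11 genes averaged at least 10 FPKM. At the low end, Epha1 had 1 to 6 counts per library and did not pass the filter on low counts, which left 50 genes for testing. The 9 plexins ran from 4.99 FPKM for Plxnd1 to 16 FPKM for Plxnb1. EphA receptors ran from 0.0729 FPKM for Epha1 to 33.6 FPKM for Epha4. Among ligands 1 member dominated each ephrin class: Efna3 made up most of the ephrin-A total of 44.7 ± 3.06 FPKM in aged and 42.8 ± 3.65 FPKM in adult rats (SD, n = 3 each), and Efnb3 most of the ephrin-B total of 68.4 ± 5.4 FPKM in aged and 60.4 ± 8.46 FPKM in adult rats.

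**Figure D1:**
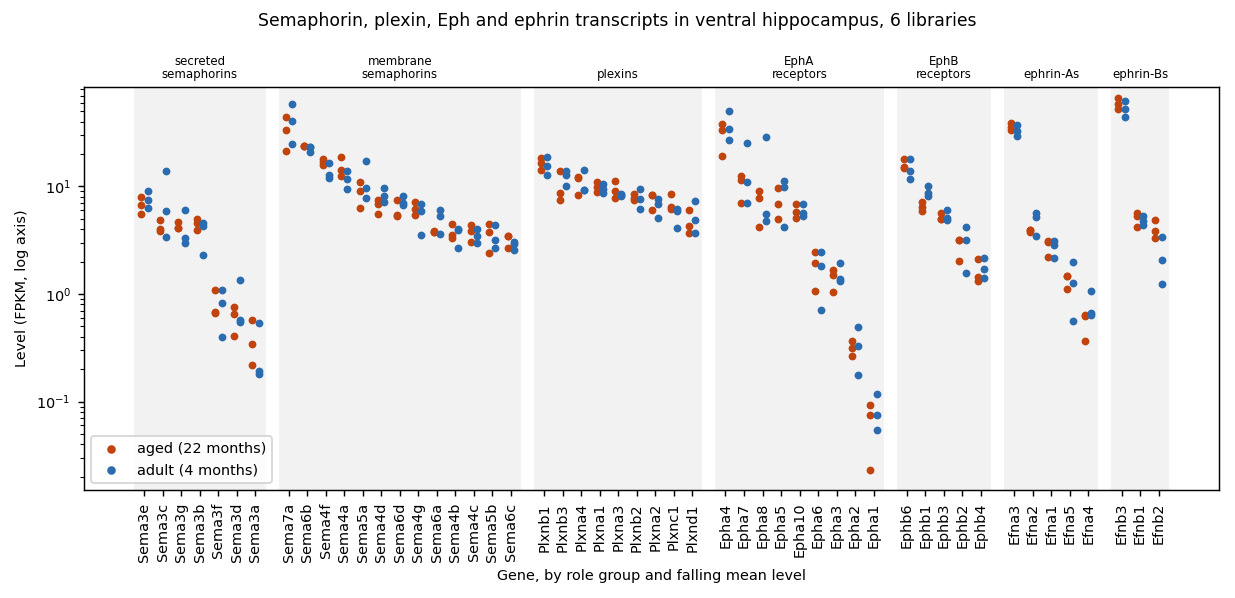
Level of each of the 51 genes in FPKM (log axis), by role group, with 1 point per library and aged libraries left of adult libraries. Efnb3, Sema7a, Efna3 and Epha4 stand highest, and in nearly every gene the points of both ages interleave.

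The design sets aged against adult rats after a memory test. No gene of the 4 families passed the threshold of an adjusted p under 0.05 (edgeR quasi-likelihood test, Benjamini-Hochberg over 14588 genes): 0 of 50 were called, against 0% of all genes tested, and the adjusted p of every one of the 50 was 1. DESeq2, limma-voom and limma on log2 FPKM also called 0 of them, and over all genes tested they called 31, 0 and, on log2(FPKM + 1), 2. At an unadjusted edgeR p under 0.05 there were 2, Ephb1 and Sema6a, which is 4% of 50 against 3.45% of all genes tested. Both were lower in aged rats. Of all genes tested, 2.27% were lower at such a p and 1.18% higher. Means were higher in aged rats for 26 genes and lower for 24, and the median log2 fold change was 0.029, against -0.002 over all genes.

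The fitted differences ran from -0.93 (Epha8) to 0.85 (Efnb2) on the log2 scale. The 3 aged and 3 adult values did not overlap in 3 genes (Ephb1, Sema4d and Efna4), 6% of 50 against 7.56% of all genes tested. All 3 were lower in aged rats. Over all 14588 genes tested, 4.43% were lower without overlap and 3.13% higher without overlap. Scaled to the library total alone, as in FPKM, Sema4d and Efna4 overlapped between the ages and Ephb1 did not. Spread within an age was wider than the difference between ages in most: in 49 of the 50 genes the highest and lowest library of 1 age differed by a larger ratio than the 2 age means did, as in 96.5% of all genes tested. A ratio of at least 2 between libraries of the same age was seen in 14 genes, and a ratio of at least 2 between the age means in 0. Over all 14588 genes tested these numbers were 3264 and 371.

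**Figure D2:**
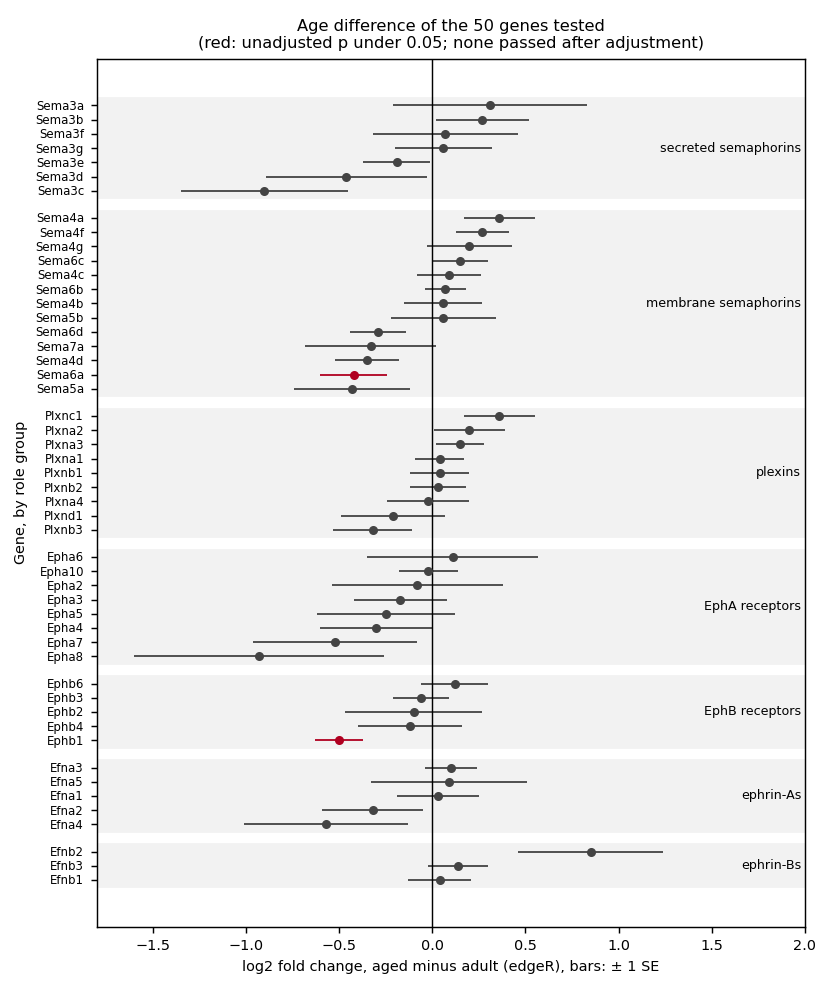
Fitted log2 fold change of each of the 50 genes tested, aged minus adult, with bars of 1 SE, by role group. Ephb1 (-0.50) and Sema6a (-0.42), in red, had an unadjusted p under 0.05, and neither passed after adjustment.

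Ephb1 encodes a receptor of ephrin-Bs that acts at synapses and, in the mouse, in the sorting of retinal axons at the chiasm. Its level was 29.6, 31.8 and 34 CPM in aged replicates 1 to 3 and 40.4, 49.9 and 44.3 CPM in adult replicates 1 to 3. All 3 aged values lay below all 3 adult values. Ephb1 averaged 31.8 ± 2.25 CPM in aged and 44.9 ± 4.78 CPM in adult rats (SD, n = 3 each). The log2 fold change was -0.50 ± 0.13 (SE, edgeR adjusted p = 1), and its p before adjustment was the smallest of the 50. Its log2 fold change stayed between -0.55 and -0.41 when each library was left out, with an unadjusted edgeR p under 0.05 each time.

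The 250 bases before the annotated start of Ephb1 are shown because it was the member with the smallest p. They are from RefSeq's GRCr8 assembly, a later build than the counts use, at chr8:111823760-111824009 on the minus strand, 5′ to 3′. Capitals mark the GC box GGGCGG on either strand in this and the later windows, and this one has none.
Ephb1: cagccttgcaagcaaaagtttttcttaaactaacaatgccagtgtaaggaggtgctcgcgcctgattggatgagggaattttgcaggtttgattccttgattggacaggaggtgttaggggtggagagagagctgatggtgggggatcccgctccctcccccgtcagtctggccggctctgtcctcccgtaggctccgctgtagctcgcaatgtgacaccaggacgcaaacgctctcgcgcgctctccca
This window holds 13 CpG sites and is 56.4% G or C. It has no TATAAA on either strand. It has 1 TGACG, the core of the cAMP response element, on the strand opposite to the one printed, where it reads CGTCA.

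The other EphB receptors showed no such separation. Ephb6, which lacks kinase activity, was the most abundant of them per length (15.3 FPKM) and stood at 75.5, 61.4 and 58.3 CPM in aged and 57.1, 73.4 and 48.7 CPM in adult replicates 1 to 3. Aged replicate 1 was highest and adult replicate 3 lowest, with the others mixed (log2 fold change 0.12 ± 0.18 SE, edgeR adjusted p = 1). Ephb2, Ephb3 and Ephb4 had log2 fold changes of -0.10, -0.06 and -0.12 with overlapping groups. In GRCr8, Ephb4 overlaps the coding gene Zan, and reads from the shared stretch cannot be told apart if strand was ignored in counting.

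Sema3e and Sema3c had the highest mean FPKM among secreted semaphorins, Sema3c only through adult replicate 3 (13.9 FPKM, against 3.4 to 5.97 FPKM in the other 5 libraries). Sema3e, which binds plexin-D1 without a neuropilin, stood at 58.1, 40.2 and 46.3 CPM in aged and 65, 44.9 and 55.1 CPM in adult replicates 1 to 3. Its groups overlapped (log2 fold change -0.19 ± 0.18 SE, edgeR adjusted p = 1). Sema3c, a neuropilin ligand, stood at 19.8, 25 and 19.5 CPM in aged and 17.3, 30.1 and 72.8 CPM in adult replicates 1 to 3.

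The high adult mean of Sema3c rested on adult replicate 3, and the other 2 adult values bracket the aged ones. Sema3c averaged 21.4 ± 3.06 CPM in aged and 40.1 ± 29.1 CPM in adult rats (SD, n = 3 each). Its log2 fold change was -0.90 ± 0.45 (SE, edgeR adjusted p = 1). It was -0.14 without adult replicate 3, and -1.25, with an unadjusted p under 0.05, without adult replicate 1. Sema3d was low, at 3.79, 2.01 and 3.07 CPM in aged and 2.73, 6.57 and 2.93 CPM in adult replicates 1 to 3. Only adult replicate 2 lay above the aged values, and the log2 fold change of -0.46 became 0.066 without that library. Sema3a, Sema3b, Sema3f and Sema3g had log2 fold changes of 0.06 to 0.31, all with overlapping groups, so 4 of 7 secreted semaphorins had a higher and 3 a lower aged mean. With a library left out, the number with a higher aged mean ran from 1 (without aged replicate 2) to 5 (without adult replicate 2).

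Of the 13 membrane semaphorins, 8 had a higher and 5 a lower aged mean (median log2 fold change 0.063). Sema6a, a ligand of plexin-A2 and plexin-A4 that oligodendrocytes of the mouse also make, stood at 34.7, 33.5 and 32.2 CPM in aged and 53.6, 47.2 and 33.4 CPM in adult replicates 1 to 3. Adult replicate 3 lay among the aged values and the other 2 adult libraries above them. Sema6a averaged 33.4 ± 1.26 CPM in aged and 44.7 ± 10.3 CPM in adult rats (SD, n = 3 each). Its log2 fold change was -0.42 ± 0.18 (SE, edgeR adjusted p = 1), with an unadjusted p just under 0.05. Without adult replicate 1 its log2 fold change was -0.26 and without adult replicate 3 it was -0.58. The unadjusted edgeR p was under 0.05 without adult replicate 3 and over 0.05 without any 1 of the other 5 libraries. Sema6a overlaps the coding gene LOC120098258 in GRCr8, as Sema5a overlaps LOC134485782, so both carry the limit on strand given for Ephb4. With non-coding genes included, 24 of the 51 genes overlap an annotated gene, Sema4d and Efna4 among them, and the same limit holds for these.

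Sema4d, the ligand of plexin-B1, which oligodendrocytes and T cells also make, stood at 28.5, 22.3 and 29 CPM in aged and 29.1, 38.7 and 33.8 CPM in adult replicates 1 to 3. The groups did not overlap, but aged replicate 3 and adult replicate 1 were nearly equal, and in FPKM aged replicate 3 (7.46) lay above adult replicate 1 (7.22). Its log2 fold change was -0.35 ± 0.17 (SE, edgeR adjusted p = 1). Sema7a ranged more widely, with 155, 72.9 and 111 CPM in aged and 84.1, 138 and 205 CPM in adult replicates 1 to 3. Aged replicate 2 and adult replicate 1 were the lowest 2 libraries, and the log2 fold change of -0.33 ± 0.35 (SE, edgeR adjusted p = 1) became 0.032 without adult replicate 3. In contrast Sema6b was nearly constant, at 126, 123 and 118 CPM in aged and 108, 119 and 123 CPM in adult replicates 1 to 3 (log2 fold change 0.07 ± 0.11 SE).

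The other membrane semaphorins overlapped between the ages. The largest differences among them were those of Sema5a, which in the mouse restrains synapse formation on dentate granule cells (-0.43), Sema4a (0.36), Sema6d (-0.29) and Sema4f (0.27) on the log2 scale, all with an edgeR adjusted p of 1. The remaining 5, Sema4b, Sema4c, Sema4g, Sema5b and Sema6c, lay between 0.06 and 0.20.

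**Figure D3:**
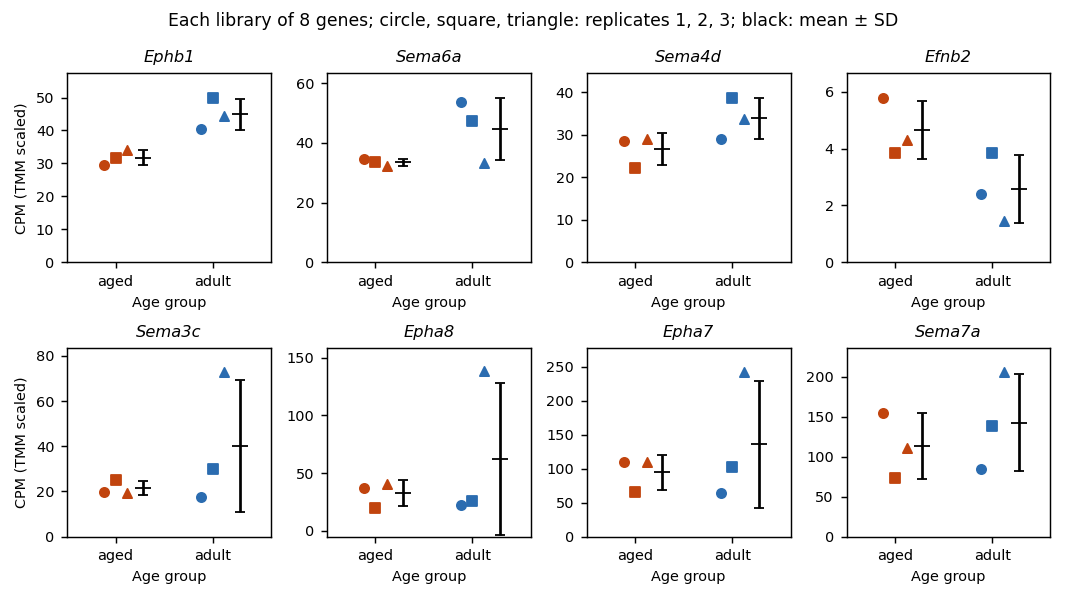
CPM scaled by TMM of 8 genes in each library, aged left of adult, with the mean and SD of 3 rats in black. Ephb1 and Sema4d do not overlap between the ages, whereas the high adult means of Sema3c, Epha8 and Epha7 rest on adult replicate 3 (72.8, 138 and 242 CPM).

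Of 9 plexins, 6 had a higher and 3 a lower aged mean, with log2 fold changes between -0.32 and 0.36. Plxnb1, the receptor of Sema4d and the most abundant plexin per length, stood at 134, 154 and 167 CPM in aged and 146, 174 and 122 CPM in adult replicates 1 to 3. The groups overlapped fully (log2 fold change 0.04 ± 0.16 SE, edgeR adjusted p = 1), and the sign turned when aged or adult replicate 3 was left out. Plxnb3, a receptor of Sema5a enriched in oligodendrocytes, stood at 50.3, 56.6 and 87.1 CPM in aged and 91.5, 82.6 and 69 CPM in adult replicates 1 to 3. Aged replicate 3 lay within the adult range and the other 2 aged libraries below it (log2 fold change -0.32 ± 0.21 SE, edgeR adjusted p = 1), and the log2 fold change was -0.60 without aged replicate 3 and -0.15 without aged replicate 1.

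Plxnc1, the receptor of Sema7a, stood at 45.3, 61.3 and 44.2 CPM in aged and 44.7, 42.5 and 29.9 CPM in adult replicates 1 to 3. Aged replicate 2 was highest and adult replicate 3 lowest, whereas Sema7a itself was lowest in aged replicate 2 and highest in adult replicate 3. Between these extremes the order was not reversed, as aged replicate 1 came next below the highest library in both genes. The log2 fold change of Plxnc1 was 0.36 ± 0.19 (SE, edgeR adjusted p = 1). Plexin-A receptors, which signal for class 3 semaphorins together with neuropilins and for class 6 semaphorins directly, had log2 fold changes of 0.04 (Plxna1), 0.20 (Plxna2), 0.15 (Plxna3) and -0.02 (Plxna4). Plxnb2 and Plxnd1 had 0.03 and -0.21.

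EphA receptors had lower aged means in 7 of 8 tested members, and a median of -0.21 on the log2 scale, and no member reached an unadjusted p under 0.05. That direction rested on adult replicate 3: without it 6 of 8 had a higher aged mean and the median was 0.04. Epha4, which binds ephrins of both classes and is known from the control of spine shape in hippocampal neurons, stood at 248, 124 and 207 CPM in aged and 172, 215 and 327 CPM in adult replicates 1 to 3. Its lowest library was aged and its highest adult, with the others mixed (log2 fold change -0.30 ± 0.30 SE, edgeR adjusted p = 1), and without adult replicate 3 the log2 fold change was 0.003.

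Epha7 and Epha8 had the smallest p-values of their group and varied most. Epha7, an ephrin-A receptor, stood at 109, 65.1 and 110.1 CPM in aged and 64.4, 102 and 242 CPM in adult replicates 1 to 3. Epha8, also an ephrin-A receptor, stood at 37.1, 19.4 and 40.9 CPM in aged and 22.3, 25.6 and 138 CPM in adult replicates 1 to 3. In both, adult replicate 3 was the highest library, and the other 2 adult libraries lay within or near the aged range.

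The ratio of the highest to the lowest adult library was 6.19 for Epha8 and 3.75 for Epha7, against 2.1 and 1.69 among aged libraries. The log2 fold change was -0.93 ± 0.67 for Epha8 and -0.52 ± 0.44 for Epha7 (SE, edgeR adjusted p = 1 for both). Without adult replicate 3 these values were 0.45 and 0.19. The windows upstream of both starts are shown because the pair shared the highest library; they are the 250 bases before the start in RefSeq's GRCr8 assembly, Epha7 at chr5:47771643-47771892 on the plus strand and Epha8 at chr5:154476967-154477216 on the minus strand, 5′ to 3′, with GGGCGG or its reverse complement in capitals.
Epha7: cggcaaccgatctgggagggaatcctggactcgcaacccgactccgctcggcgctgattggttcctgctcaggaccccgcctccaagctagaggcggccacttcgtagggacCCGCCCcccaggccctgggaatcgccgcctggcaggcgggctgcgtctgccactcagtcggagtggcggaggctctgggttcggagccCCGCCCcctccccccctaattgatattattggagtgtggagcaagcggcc
Epha8: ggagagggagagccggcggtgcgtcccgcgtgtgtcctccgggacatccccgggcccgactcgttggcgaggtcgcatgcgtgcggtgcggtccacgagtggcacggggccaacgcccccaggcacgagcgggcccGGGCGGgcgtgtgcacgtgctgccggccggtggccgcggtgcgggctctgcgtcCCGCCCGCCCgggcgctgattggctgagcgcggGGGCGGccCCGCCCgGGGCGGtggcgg
Epha7 holds 2 such GC boxes and 20 CpG sites, and Epha8 holds 6 GC boxes, some of them overlapping, and 40 CpG sites, against 0 and 13 in the Ephb1 window.

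Across the families, upstream windows were found for 41 of the 51 genes. GGGCGG was present on either strand in 56.1% of these 41 windows and in 40.3% of 18999 windows of protein-coding genes. TATAAA was present in 0 of the 41 and in 12.3% of all. TGACG was present in 12.2% of the 41 and 21.1% of all, and its longer form TGACGTCA, which contains TGACG, in 2.44% and 2.03%. The median window of the 41 was 61.2% G or C with 14 CpG sites, against 54.8% and 9 over all windows. These counts describe letters in a window and were not tied to any difference between the ages.

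The remaining EphA receptors overlapped between the ages. Epha3, Epha5, Epha6, Epha10 (which lacks kinase activity) and Epha2 had log2 fold changes of -0.17, -0.25, 0.11, -0.02 and -0.08. Epha6 varied from 12.2 to 28.9 CPM in aged and from 8.13 to 29.1 CPM in adult libraries, while Epha10 kept to 30.7 to 42.5 CPM in aged and 33.1 to 42.3 CPM in adult libraries.

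Among ephrin-As, 3 of 5 had a higher and 2 a lower aged mean. Efna3 stood at 85.5, 92.3 and 75.5 CPM in aged and 88, 67.9 and 79.7 CPM in adult replicates 1 to 3. The groups overlapped (log2 fold change 0.10 ± 0.14 SE, edgeR adjusted p = 1). Efna2 stood at 4.73, 4.5 and 4.44 CPM in aged and 4.1, 6.13 and 6.86 CPM in adult replicates 1 to 3. Its aged libraries fell between adult replicate 1 and the other 2 (log2 fold change -0.32 ± 0.27 SE).

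Efna4 was near the lower limit of the filter, with 8 to 24 counts per library, and stood at 0.532, 0.884 and 0.876 CPM in aged and 0.956, 1.52 and 0.933 CPM in adult replicates 1 to 3. Its groups did not overlap, but aged replicates 2 and 3 lay just under adult replicates 1 and 3, and the log2 fold change of -0.57 ± 0.44 (SE) had an edgeR adjusted p of 1. Efna1 and Efna5 had log2 fold changes of 0.03 and 0.09.

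All 3 ephrin-Bs had a higher aged mean, although 1 of them turned sign without aged or adult replicate 3. Efnb2, an ephrin of neurons and arterial endothelium, stood at 5.79, 3.86 and 4.32 CPM in aged and 2.39, 3.86 and 1.47 CPM in adult replicates 1 to 3. Replicate 2 of both ages had practically the same value, so the groups met there. Efnb2 averaged 4.65 ± 1.01 CPM in aged and 2.57 ± 1.2 CPM in adult rats (SD, n = 3 each). The log2 fold change of Efnb2 was 0.85 ± 0.39 (SE, edgeR adjusted p = 1), and leaving out adult replicate 3 gave 0.58 and leaving out adult replicate 2 gave 1.27. The unadjusted p was over 0.05 by edgeR with all 6 libraries, and under 0.05 by limma-voom and by edgeR without adult replicate 2.

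Beside Efnb2, the 9 endothelial marker genes in the table went the other way, with 9 of 9 lower in aged rats and sums of 299 to 423 CPM in aged and 401 to 551 CPM in adult libraries. None of the 9 was at 0. Efnb3 stood at 235, 290 and 246 CPM in aged and 274, 193 and 235 CPM in adult replicates 1 to 3, and Efnb1 at 17.5, 13.6 and 17.6 CPM in aged and 15.5, 17.3 and 14.5 CPM in adult replicates 1 to 3. Both overlapped between the ages, with log2 fold changes of 0.14 ± 0.16 and 0.04 ± 0.17 (SE, edgeR adjusted p = 1 for both), and that of Efnb1 was -0.021 and -0.006 without aged and adult replicate 3 in turn.

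Single libraries often held the extreme values. Of the 50 genes, 13 were highest and 13 lowest in adult replicate 3, which is 26% each against 17.4% and 16.6% of all genes tested. Aged replicate 2 was the lowest library for 14 genes (28%, against 18.9% of all genes) and adult replicate 1 for 11 (22%, against 16.5%). Aged replicate 3 was the highest for 5 and the lowest for 4. The genes highest in adult replicate 3 were Epha3, Epha4, Epha5, Epha6, Epha7, Epha8, Ephb2, Efna2, Plxna1, Plxna4, Sema3c, Sema5a and Sema7a. Those lowest there were Sema3b, Sema3f, Sema3g, Sema4a, Sema4b, Sema4g, Plxnb1, Plxnb2, Plxnc1, Ephb6, Efna1, Efna5 and Efnb2.

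**Figure D4:**
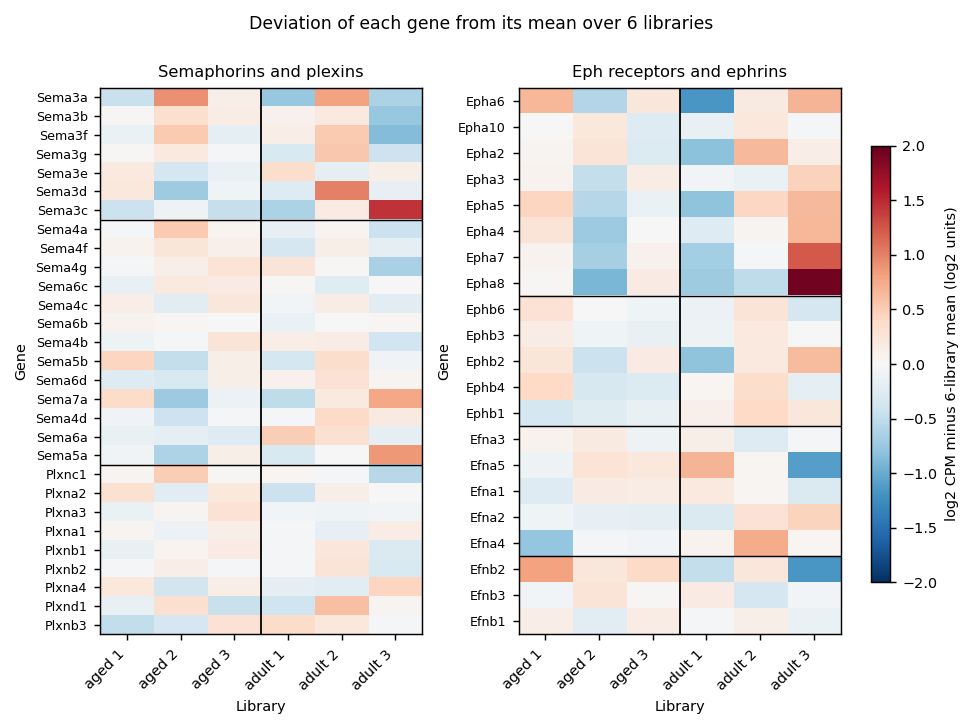
Deviation of each of the 50 genes from its mean over 6 libraries, as log2 CPM, in columns by library with aged left of adult and rows grouped by role. Adult replicate 3 stands out for Epha7, Epha8 and Sema3c above and for Efnb2 and Efna5 below, and aged replicate 2 and adult replicate 1 share low values of Epha4, Epha5, Epha6, Epha7, Epha8 and Sema7a.

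Neuronal markers differed between the same libraries. The 10 genes of pyramidal and granule neurons summed to 2332, 1381 and 1782 CPM in aged replicates 1 to 3, against 1180, 2120 and 2236 CPM in adult replicates 1 to 3. None of the 10 was at 0 in any library. Aged replicate 2 and adult replicate 1, the lowest libraries for Epha4, Epha7 and Sema7a, were also the lowest for this sum. Slc17a7 and Camk2a, which had the highest means of the 10, were lowest in the same libraries. Not every gene of the list followed. Neurod6 stood at 160 CPM in adult replicate 1, above aged replicate 3 (122 CPM) and adult replicate 2 (129 CPM). Wfs1 was highest among aged libraries in aged replicate 2 (162 CPM). Prox1, a transcription factor of dentate granule cells, stood at 55.1, 28.4 and 63.3 CPM in aged and 50.1, 51.3 and 100.1 CPM in adult replicates 1 to 3.

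Granule cell genes were highest in adult replicate 3, where Epha7, Epha8, Sema3c and Sema5a were highest too. C1ql2, a secreted protein of mossy fibre synapses, stood at 71.6, 73.7 and 83.3 CPM in aged and 64, 68 and 175 CPM in adult replicates 1 to 3, and Dsp at 6.43 to 8.82 CPM in aged and 4.85, 6.32 and 13.8 CPM in adult replicates 1 to 3. The sum of muscle genes was also highest in that library. The part of granule cell and muscle content in these differences was not tested.

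Oligodendrocyte markers were lower in aged rats beside Sema4d, Sema6a and Plxnb3. All 12 had a lower aged mean, 9 of them at an unadjusted edgeR p under 0.05 (2.27% of all genes tested were lower at such a p) and 0 after adjustment. Their sum was 7059, 7405 and 9419 CPM in aged and 17916, 12201 and 11876 CPM in adult replicates 1 to 3, and none was at 0. The gene for myelin basic protein, Mbp, had means of 4693 CPM in aged and 8398 CPM in adult rats. The sum was highest in aged replicate 3 among aged and in adult replicate 1 among adult libraries. Plxnb3 was highest in the same libraries. Sema4d was highest in aged replicate 3 but lowest in adult replicate 1, Sema6a lowest in aged replicate 3 but highest in adult replicate 1, and Ephb1 highest in aged replicate 3 but lowest in adult replicate 1, each among libraries of its age. The oligodendrocyte precursor list summed to 300 to 357 CPM in aged and 319 to 451 CPM in adult libraries. Olig1 and Sox10 had the highest mean levels in it. Of its 7 genes tested, 5 had a lower aged mean. The other 2, Pdgfra and Cspg4, had log2 fold changes of 0.01 and 0.12. The part of oligodendrocytes and their precursors in the lower means of Sema4d, Sema6a, Plxnb3 and Ephb1 was not tested.

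**Figure D5:**
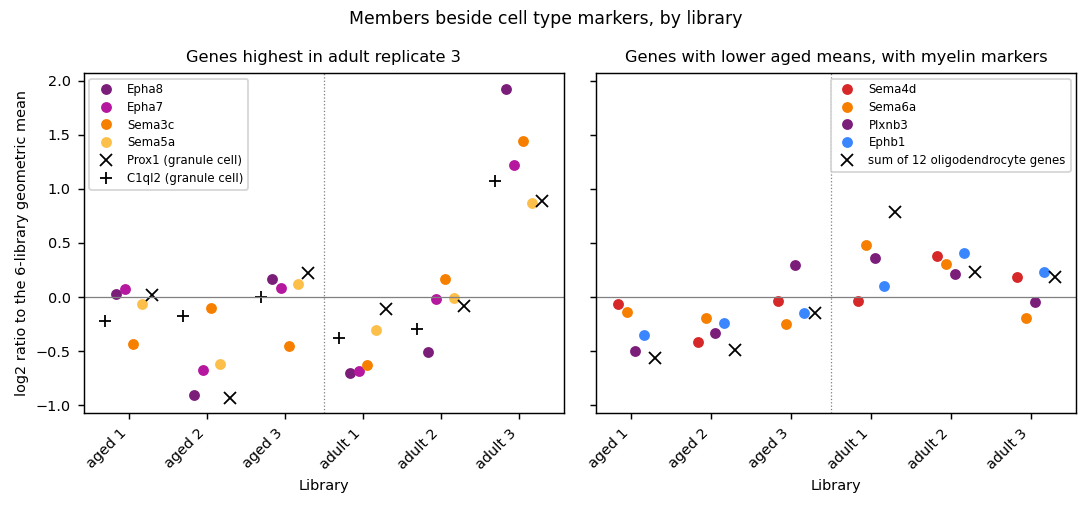
Log2 ratio of each library to the geometric mean of 6 libraries, aged left of adult, for 4 genes beside 2 granule cell markers (left) and 4 genes beside the sum of 12 oligodendrocyte markers (right). On the left every gene stands highest in adult replicate 3. On the right the marker sum, Ephb1 and, narrowly, Sema4d lie lower in all 3 aged than in all 3 adult libraries.

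Other marker lists overlapped or differed as follows. Pericyte genes summed to 124 to 178 CPM in aged and 203 to 273 CPM in adult libraries, and meningeal fibroblast genes to 174 to 272 CPM in aged and 307 to 548 CPM in adult libraries. Col1a1 and Col3a1 had the highest mean levels of the 12 meningeal fibroblast genes, of which 8 had a lower and 4 a higher aged mean. Astrocyte genes summed to 3437 to 4063 CPM in aged and 3299 to 4270 CPM in adult libraries. Microglial genes (358 to 523 CPM in aged, 322 to 409 CPM in adult libraries) and interneuron genes (643 to 876 CPM in aged, 582 to 761 CPM in adult libraries, with Npy at 0 counts in all 6) overlapped as well. The limit given for Otx2 at 0 counts holds for Npy too.

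Genes that work with these families were looked up in 4 lists with 73 genes, of which 69 were tested. Of these 69, 43 had a higher aged mean (62.3%, against 49.5% of all genes tested) and 26 a lower 1. By edgeR, DESeq2 or limma-voom 0 were called, and 2 had an unadjusted edgeR p under 0.05 (2.9%, against 3.45% of all genes tested). The ages did not overlap in 7 (10.1%, against 7.56% of all genes tested): L1cam, Arhgef15, Acp1, Inppl1, Chn2, Ntng1 and Slit1. Of 21 co-receptors and effectors of semaphorins tested, 14 were higher and 7 lower (median log2 fold change 0.044). The neuropilin genes Nrp1 and Nrp2 had log2 fold changes of -0.05 ± 0.18 and 0.28 ± 0.18 (SE), and L1cam, an adhesion molecule that joins the neuropilin complex, had the smallest p of this list. L1cam stood at 223, 219.9 and 227 CPM in aged and 182, 206 and 166 CPM in adult replicates 1 to 3. Its groups did not overlap (log2 fold change 0.27 ± 0.12 SE, edgeR adjusted p = 1).

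Of 25 effectors of Eph receptors and ephrins, 13 were higher and 12 lower (median 0.006). Chn2, a chimaerin that inactivates Rac, stood at 10.4, 7.23 and 10.7 CPM in aged and 15.2, 15.6 and 11.7 CPM in adult replicates 1 to 3. All aged values lay below all adult values (log2 fold change -0.58 ± 0.22 SE, edgeR adjusted p = 1). Among netrins and their receptors 9 of 14 were higher and 5 lower (median 0.12). Ntng1, which encodes netrin-G1, had the smallest p of that list, with a log2 fold change of 0.21 ± 0.11 (SE, edgeR adjusted p = 1).

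Slit and Robo genes had 7 of 9 members higher and 2 lower in aged rats (median 0.11). The 2 lower were Robo1 (-0.01) and Robo3 (-1.42 ± 0.91 SE), the largest difference in the 4 lists. Robo3 stood at 102 CPM in adult replicate 3, against 5.54 to 22.4 CPM in the other libraries. Slit1, a secreted repellent that binds Robo receptors, stood at 128, 104 and 128 CPM in aged and 88, 99 and 81.8 CPM in adult replicates 1 to 3. All aged values lay above all adult values, and the log2 fold change was 0.42 ± 0.13 (SE, edgeR adjusted p = 1).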

How the data were processed

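Bulk RNA-seq of 6 ventral hippocampi was used as deposited by the authors in a table of raw counts per gene symbol. The authors' deposited FPKM values follow from the counts, a constant length for each gene and the library sum (largest relative deviation 1.8e-07), so both tables hold 1 measurement. Reads were mapped to Rnor 6.0, per the submitters' processing notes; the sources used here name no aligner, counting program, annotation or strand setting. Members, gene lists and alternatives were chosen with earlier results of these data known.

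All 22601 genes were filtered with edgeR's filterByExpr, leaving 14588, scaled by TMM and tested with its quasi-likelihood F test (edgeR 4.0.16, R 4.3.3), two-sided, with age as the only term and Benjamini-Hochberg adjustment over all genes. SEs were derived from the F statistic. The test was checked on simulated counts. Libraries of 1 age differed far beyond sampling noise. Named genes were, per role group, the 2 of highest FPKM and the 2 of smallest p, any with an unadjusted p under 0.05 and any whose ages did not overlap (21 in all); for other lists, those under 0.05 or else the smallest p. Other genes given with values were chosen after their values were seen. The muscle list was added after these data were seen. Alternatives used DESeq2 1.42.0 and limma 3.58.1, with pseudocounts of 1 and 0.1 for log2 FPKM. Symbols were matched to RefSeq GRCr8 for overlaps and upstream sequences. Precision is limited by 3 rats per age.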

Additional observations from a re-analysis of the deposited data

How the results depend on the processing

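No semaphorin, plexin, Eph or ephrin gene and no gene of the 4 related lists was called under any of 18 alternatives, including an adjusted p under 0.1. Over all genes, DESeq2 called 31, limma on log2(FPKM + 1) called 2, and edgeR called 0 to 1 when a library was left out. Genes at an unadjusted p under 0.05 numbered 405 to 773 with a library left out, against 503. Among the 4 families the 2 such genes became 1 with upper-quartile or library size scaling (Ephb1) and 1 to 4 with a library left out, Ephb1 among them each time. DESeq2 gave 3, with Sema3c beside Ephb1 and Sema6a. Limma-voom and limma on log2 FPKM gave Ephb1 and Efnb2 without Sema6a. EdgeR with the replicate number as a block gave Ephb1 and Sema4a. In the related lists the 2 became 4 with log2(FPKM + 1) and 2 to 6 with a library left out. The median log2 fold change of the families lay between -0.07 and 0.07 with a library left out, and genes at 10 FPKM or more numbered 11 to 14.

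Of 21 genes named by the rule, 14 kept their sign under every alternative (17 for each, and 16 for Efna4, which the filter of at least 1 CPM removed), and 7 turned only when a library was left out. Their leave-one-out ranges were -0.021 to 0.16 (Efnb1), -0.50 to 0.003 (Epha4), -0.85 to 0.19 (Epha7), -1.32 to 0.45 (Epha8), -0.069 to 0.18 (Plxnb1), -0.67 to 0.066 (Sema3d) and -0.61 to 0.032 (Sema7a). Of those that kept their sign, log2 fold changes shrank, with a library left out, by over 1.5 times to -0.14 for Sema3c, -0.15 for Plxnb3, -0.26 for Sema6a, -0.23 for Sema4d, -0.16 for Efna2, -0.31 for Efna4, 0.21 for Plxnc1, -0.042 for Sema3e, 0.014 for Efnb3, 0.009 for Efna3, 0.030 for Sema6b and 0.003 for Ephb6. Deviations of same-numbered libraries from their age means correlated at -0.0152, -0.057 and 0.0865. These values cannot show whether same-numbered animals were paired or processed together. With the replicate number as a block 0 of the families' genes were called, and the 2 genes of the related lists at an unadjusted p under 0.05 became 1. Counts were lowest for Efna4 (8 to 24) and Epha2 (10 to 30), and Efnb2 had 22 to 87.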
